A study of Rattus norvegicus with 6 samples.

Results

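Chemokines are small secreted proteins that attract leukocytes, and their receptors are G protein-coupled receptors on the cells that respond. They were taken here as every target of the array (a transcript or gene that 1 or more probes measure) whose gene name began with Ccl, Cxcl, Cx3cl, Xcl, Ccr, Cxcr, Cx3cr or Xcr followed by a number. This gave 50 targets of 49 genes, among 36410 targets on the array. Of the 50, 33 were ligands and 17 were receptors. Receptors that the array lists by older names, such as Il8ra, Il8rb and Blr1, fell outside this rule and are given separately.

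The spinal cords came from adult Lewis rats and were fixed in formalin and embedded in paraffin. ENMO (experimental neuromyelitis optica) rats received T cells specific for myelin basic protein on day 0 and NMO-IgG, IgG from a patient with neuromyelitis optica, on day 4. EAEcoI rats received the same T cells and human control IgG, and EAEcoP rats the same T cells and PBS. The groups without T cells were given NMO-IgG only, control IgG only, or no treatment (healthy control). Treated rats were killed 24 hours after the antibody or PBS. RNA from 25 sections per animal was pooled from 5 rats for each treated group and from 3 rats for the healthy control, amplified, and hybridised to 1 array per pool. ENMO, EAEcoI and EAEcoP together are called all T, and the other 3 arrays all non-T.

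Ligands fall into groups by the cells they draw. Cxcl9, Cxcl10 and Cxcl11 are induced by interferon-γ and bind Cxcr3 on activated T cells, Ccl2 and Ccl7 bind Ccr2 on monocytes, and Cxcl1, Cxcl2 and Cxcl3 act on neutrophils through Cxcr2. Ccl19 and Ccl21 bind Ccr7 and guide T cells and dendritic cells in lymphoid tissue. Cx3cl1 (fractalkine) is made by neurons and binds Cx3cr1 on microglia.

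Values are normalized signal intensities (NSI), the scanner's background-corrected signals after quantile normalization over the 6 arrays. A target counts as above background where the scanner software marked it as well above background. Signals are listed for ENMO, EAEcoI and EAEcoP and then, after the word against, first for NMO-IgG only, then for control IgG only and last for healthy control. Probes printed in 10 spots had an SD of 0.574 (log2) between spots. A difference between a pair of arrays had to pass 1.59 on the log2 scale (3.01-fold), and a difference between means of 3 arrays 0.918 (1.89-fold), to lie outside this spread at a normal p of 0.05. This is a spread between spots within an array. It covers neither the animals nor differences between arrays, such as those of amplification or slide. Each group is 1 array, and the number of arrays limits the precision. Fewer cells of a type and less RNA per cell cannot be told apart in such samples. Slide 1 carried control IgG only, EAEcoP and ENMO, and slide 2 carried healthy control, EAEcoI and NMO-IgG only. Within each slide the arrays with and without T cells therefore also differ in antibody, and differences within a slide hold both.

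The promoters of 6 members are shown. Those of Ccl19, Cxcl14, Cx3cl1 and Cxcr6 belong to members whose signals did not overlap between all T and all non-T, and those of Cxcl10 and Cxcl1 are examples of an interferon-induced and a neutrophil-attracting ligand with motif matches. Each is the run of 250 bases before the gene start, from RefSeq, assembly GRCr8. The positions are chr5:61761165-61761414 (minus strand) for Ccl19, chr17:8322900-8323149 (plus strand) for Cxcl14, chr19:10242821-10243070 (minus strand) for Cx3cl1, chr8:132314956-132315205 (plus strand) for Cxcr6, chr14:15988816-15989065 (plus strand) for Cxcl10 and chr14:17479322-17479571 (minus strand) for Cxcl1. They read 5′ to 3′ along the gene, and capitals mark motif matches, which can run into each other.
Ccl19: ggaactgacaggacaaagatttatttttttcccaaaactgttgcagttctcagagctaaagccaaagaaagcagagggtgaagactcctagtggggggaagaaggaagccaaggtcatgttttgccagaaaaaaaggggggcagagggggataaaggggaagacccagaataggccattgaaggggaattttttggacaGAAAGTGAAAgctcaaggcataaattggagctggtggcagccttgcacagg
Cxcl14: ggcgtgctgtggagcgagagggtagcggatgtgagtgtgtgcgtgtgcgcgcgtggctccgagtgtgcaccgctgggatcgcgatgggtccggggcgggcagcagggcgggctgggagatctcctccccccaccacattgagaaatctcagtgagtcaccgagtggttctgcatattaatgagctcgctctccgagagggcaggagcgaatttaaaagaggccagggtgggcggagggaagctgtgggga
Cx3cl1: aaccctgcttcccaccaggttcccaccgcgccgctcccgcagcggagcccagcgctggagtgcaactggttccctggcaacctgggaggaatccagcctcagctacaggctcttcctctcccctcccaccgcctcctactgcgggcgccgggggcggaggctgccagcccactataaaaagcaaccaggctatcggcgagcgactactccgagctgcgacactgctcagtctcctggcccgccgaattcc
Cxcr6: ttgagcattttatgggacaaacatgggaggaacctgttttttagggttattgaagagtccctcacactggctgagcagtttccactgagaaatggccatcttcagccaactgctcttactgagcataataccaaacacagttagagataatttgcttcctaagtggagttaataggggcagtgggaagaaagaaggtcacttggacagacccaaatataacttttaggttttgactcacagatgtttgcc
Cxcl10: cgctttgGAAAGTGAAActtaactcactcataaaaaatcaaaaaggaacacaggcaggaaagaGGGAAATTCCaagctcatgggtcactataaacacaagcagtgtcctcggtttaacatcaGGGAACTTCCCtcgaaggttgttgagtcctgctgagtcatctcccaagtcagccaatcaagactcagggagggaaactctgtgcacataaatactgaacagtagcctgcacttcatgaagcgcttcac
Cxcl1: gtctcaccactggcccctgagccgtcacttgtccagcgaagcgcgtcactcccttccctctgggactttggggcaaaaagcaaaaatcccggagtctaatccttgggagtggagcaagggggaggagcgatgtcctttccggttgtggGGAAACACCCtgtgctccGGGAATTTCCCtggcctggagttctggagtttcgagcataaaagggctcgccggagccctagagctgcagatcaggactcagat
The motifs were searched on both strands. They were GAAA followed after any 2 bases by GAAA, the core of the interferon-stimulated response element (ISRE), TTC followed after any 3 bases by GAA, the interferon-γ activated site, and GGG followed after any 3 bases by TTCC, for NF-κB. The ISRE letters stood in the promoters of Ccl19 and Cxcl10, 2 of the 26 ligand genes with a promoter in the table, and in 3.41% of 33469 promoters of the same length. The NF-κB letters stood in 9 of 26 ligand genes and 1 of 11 receptor genes, against 4.53% of all promoters. The letters of the interferon-γ activated site stood in 3 ligand genes and 1 receptor gene, against 7.67%. A match is a match of letters and not a bound site.

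Of the 50 targets, 42 were above background on at least 1 array, 28 of 33 ligands and 14 of 17 receptors, and 21 were so on all 6. The array as a whole had 24944 such targets of 36410, and 11076 on all 6. The 8 targets above background on no array were the ligands Ccl20, Ccl24, Cxcl5, Cxcl13 and Xcl1 and the receptors Ccr1, Ccr6 and Cxcr7. Among them are Cxcl13, which attracts B cells, and Ccl20 with its receptor Ccr6. Members above background numbered 33 on ENMO, 34 on EAEcoI and 39 on EAEcoP, against 26, 25 and 26. Over all targets the shares were 46.4%, 56.0% and 61.3%, against 42.4%, 37.4% and 43.8%. The lowest NSI that counted as above background was 5.53 to 8.19 on the arrays with T cells and 10.5 to 11.6 on those without. Detection itself differed between the sides in this way, and its part in the counts was not tested.

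**Figure D1:**
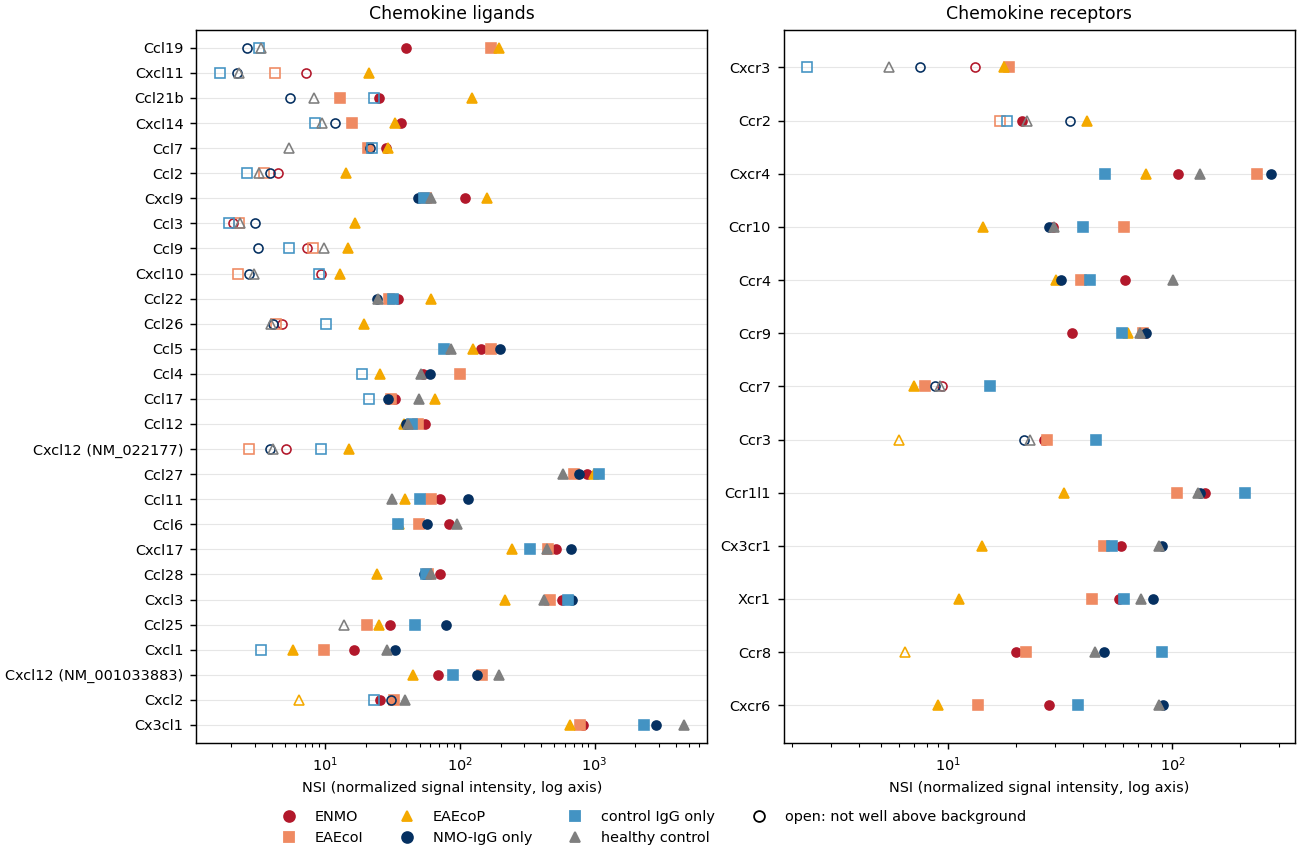
NSI (log axis) of the ligands (left) and receptors (right) reported here that were above background on at least 1 of the 6 arrays, ordered by the difference between arrays with and without T cells; open symbols are not well above background. Ccl19 lies at 39.7 to 196 with T cells and at 2.59 to 3.33 without, and EAEcoP holds the lowest value of most receptors drawn.

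T cell transfer was compared first, all T against all non-T. In limma, 0 of 24944 targets were called at an adjusted p under 0.05 (0% of targets), and 2796 had an unadjusted p under 0.05. Of the 42 members 0 were called and 7 had an unadjusted p under 0.05. These were Ccl19, Cxcl11, Cxcl14 and Cxcr3, with a higher mean with T cells, and Cx3cl1, Ccr8 and Cxcr6, with a lower mean. An exact permutation test of 3 arrays against 3 cannot go below 0.1. The members are therefore described by whether the groups of arrays overlap. For a target to count as higher without overlap, all 3 arrays with T cells also had to be above background. To count as lower, all 3 without T cells had to be so. The same holds for the marker and gene lists below. With T cells, 2 of 42 members were higher on all 3 arrays by this rule, Ccl19 and Cxcl14, against 7.1% of all targets. Cxcl11 and Cxcr3 were also higher on all 3 than on every array without, but were not above background on each of the 3. A further 4 of 42 were lower on all 3, Cx3cl1, Ccr8, Cxcr6 and Xcr1, against 5.4%. The first count was 6 without EAEcoI, 4 without control IgG only and 4 without healthy control, and the count of lower members was 7 without control IgG only. With an array left out, fewer values are left to overlap, so the shares of 7.1% and 5.4% do not apply to these counts. The shares over all targets in those settings are not given here. These counts therefore do not show whether chemokine targets changed more than the array as a whole.

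Members above background on all 6 arrays were compared with all such targets, since detection with T cells alone favours a higher value there. The median log2 difference was -0.08 over these 12 ligands and -0.97 over these 9 receptors, beside -0.29 over all targets above background on all arrays. Over every member above background somewhere, the median was 0.39 for the 28 ligands and -0.61 for the 14 receptors, beside -0.02 for all targets. Of these ligands 11 were above background with T cells only, and all 11 had a positive difference, which that filter favours, while 7 of the other 17 did. Of the receptors 2 were above background with T cells only. The receptor median was -0.91 within slide 1 and -0.43 within slide 2, -0.34 without EAEcoP and -0.91 without EAEcoI, and that of the 28 ligands was 0.46 and 0.02 within the slides, 0.17 without EAEcoP and 0.24 without healthy control. The normexp background correction, another way to subtract the array's background, gave 0.09 for ligands and -0.31 for receptors.

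The slides also separated members. Of 42 members 5 were higher on all 3 arrays of slide 2 than on any of slide 1, against 8.12% of all targets, among them Ccr9, Cxcl2, Cxcr4 and the Cxcl12 target NM_001033883. A further 7 were higher on all of slide 1, against 7.59%. These were Ccl7, Ccl21b, Ccl22, Ccl26, Ccl27, Cxcl10 and the Cxcl12 target NM_022177.

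**Figure D2:**
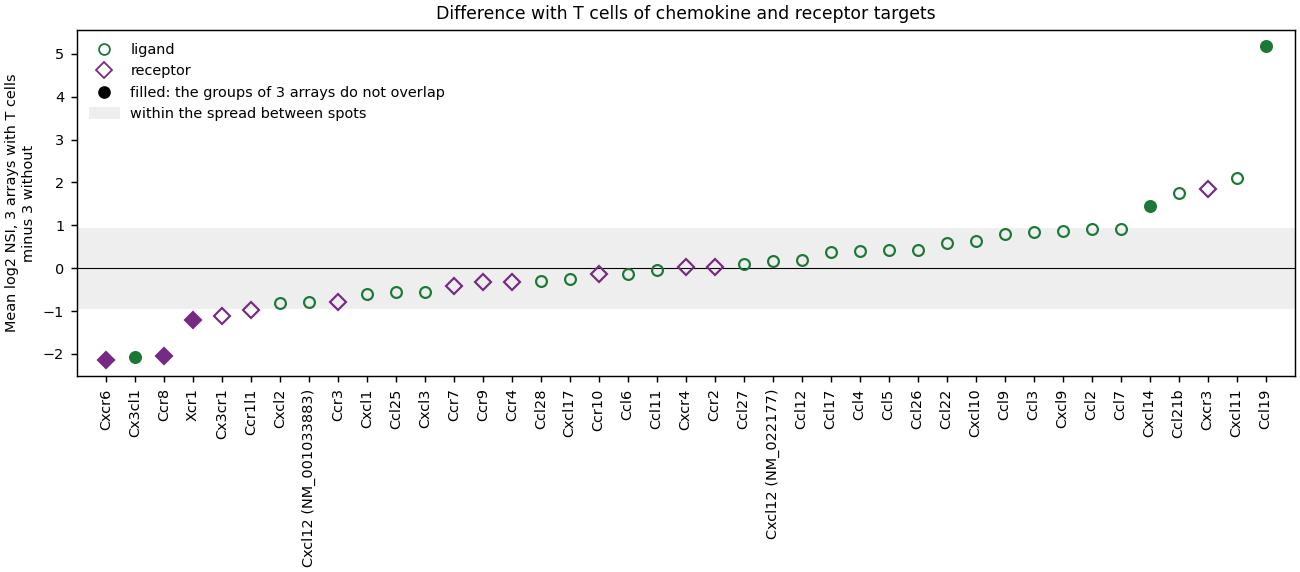
Difference in mean log2 NSI between the 3 arrays with and the 3 without T cells, for the members reported here that were above background on at least 1 array, with signals as measured also where they are below background; the grey band is the spread between spots, 0.918 to either side. The differences run from 5.18 for the ligand Ccl19 down to -2.14 for the receptor Cxcr6. Filled symbols are the members counted as not overlapping, a count that leaves out Cxcl11 and Cxcr3.

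Ccl19 (NM_001108661), which attracts T cells and dendritic cells through Ccr7, had an NSI of 39.7 on ENMO, 171 on EAEcoI and 196 on EAEcoP, against 2.59, 3.20 and 3.33, the last 3 below background. The groups did not overlap, and ENMO had the lowest signal of the arrays with T cells. Ccl19 was at least 10.09-fold higher with T cells, a log2 difference of at least 3.34. The limma fit uses the signals below background as they stand and gave 5.18 (SE 0.694, adjusted p = 0.128), so its size and error rest on signal that was not measured above background. The limma fit called it with antibody as a block (adjusted p = 0.0358) and without the ENMO array (adjusted p = 0.0210), while its adjusted p over the other alternatives lay between 0.0899 and 0.680. The difference between signals as they stand was 4.78 within slide 1 and 5.86 within slide 2. With the normexp background correction it was 1.41.

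Ccl21b (NM_001008513), listed as Ccl21 in RefSeq, is the other ligand of Ccr7. Its NSI was 25.1 on ENMO, 12.9 on EAEcoI and 123 on EAEcoP, against 5.49, 22.8 and 8.19. It was above background with T cells only and at least 2.50-fold higher there, but EAEcoI lay below control IgG only, so the groups overlapped. Its log2 difference of 1.76 was 0.84 without EAEcoP, inside the spread. The receptor Ccr7 (NM_199489) had an NSI of 9.33, 7.88 and 6.99, against 8.68, 15.4 and 9.19. It spanned 2.20-fold over the 6 arrays, and its highest signal was on control IgG only. Ccr7 was above background on that array, EAEcoI and EAEcoP, and not on the others. On GRCr8, Ccl27, Ccl19 and Ccl21b neighbour each other on chromosome 5. Ccl27 (NM_001108660), a skin-homing ligand of Ccr10, had an NSI of 882, 701 and 983, against 772, 1085 and 580.2, with a log2 difference of 0.11.

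Cxcl14 (NM_001013137), a ligand that many healthy tissues make, had an NSI of 36.7 on ENMO, 15.8 on EAEcoI and 32.6 on EAEcoP, against 11.7, 8.33 and 9.39, the last 3 below background. It was at least 2.37-fold higher with T cells (log2 difference 1.46, SE 0.577, limma adjusted p = 0.397). Within slide 2 the difference was 0.59, inside the spread between spots, and with normexp it was 0.33.

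Of the Cxcr3 ligands, Cxcl9 (NM_145672) was above background on all arrays. Its NSI was 109 on ENMO, 55.9 on EAEcoI and 158 on EAEcoP, against 48.4, 54.4 and 60.5, and EAEcoI lay among the arrays without T cells. Cxcl10 (NM_139089) had an NSI of 9.31, 2.24 and 12.9, against 2.72, 8.88 and 2.94. Cxcl11 (NM_182952) had an NSI of 7.15, 4.23 and 21.0, against 2.18, 1.63 and 2.29. Both Cxcl10 and Cxcl11 were above background on EAEcoP alone. For Cxcl11 every array with T cells lay above every array without, but for that reason it is not in the count of higher members. For each of the 3 ligands the highest signal was on EAEcoP and the lowest among the arrays with T cells on EAEcoI. These genes lie side by side on chromosome 14.

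Cxcr3 (NM_053415), their receptor on activated T cells, had an NSI of 13.2 on ENMO, 18.6 on EAEcoI and 17.8 on EAEcoP, against 7.46, 2.34 and 5.45. Among the receptors it had the largest positive log2 difference, 1.84 (SE 0.631, limma adjusted p = 0.322). Every array with T cells lay above every array without, but ENMO was not marked as above background, so Cxcr3 is not in the count of higher members. As a bound, with 2 of 3 arrays with T cells above background, it was at least 1.5-fold higher, and with normexp the log2 difference was 0.10.

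Among the Ccr2 ligands, Ccl2 (NM_031530), a monocyte attractant, is measured by a probe printed in 10 spots. Its NSI was 4.46 on ENMO, 3.46 on EAEcoI and 14.3 on EAEcoP, against 3.89, 2.61 and 3.21. The lowest of its spots on EAEcoP, 8.86, lay above the highest spot on any other array, 8.59. The log2 difference between the sides was 0.92, and it was 0.30 without EAEcoP and -0.03 within slide 2. EAEcoP was the array on which Ccl2 was above background.

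**Figure D3:**
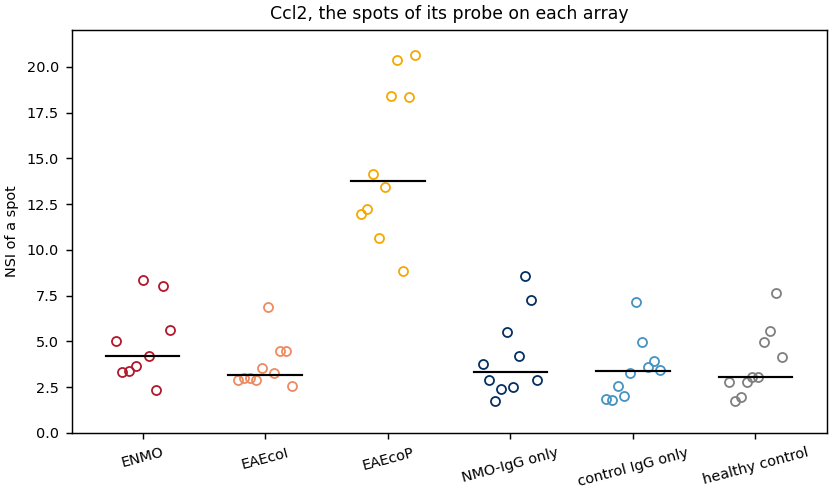
NSI of each spot of the Ccl2 probe on the 6 arrays, 10 spots an array and 9 on ENMO, where 1 was marked as an outlier; lines are medians. The EAEcoP spots run from 8.86 to 20.7, and no spot of another array passes 8.59.

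Ccl7 (NM_001007612), another Ccr2 ligand, has 2 probes. The brighter had an NSI of 28.2, 20.7 and 29.4, against 21.3, 22.1 and 5.35. The dimmer had 8.67, 7.52 and 30.2, against 4.33, 4.34 and 6.44, and was above background on EAEcoP alone. The log2 difference of 0.92 by the brighter probe was 0.25 without healthy control. Ccl12 (NM_001105822), also a ligand of Ccr2, was above background everywhere at 54.9, 49.1 and 38.3, against 39.5, 44.0 and 40.7, all within 1.43-fold. The receptor Ccr2 (NM_021866) had an NSI of 21.4, 17.0 and 41.5, against 35.0, 18.3 and 22.4, with the groups overlapping. It was above background on ENMO and EAEcoP alone.

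The inflammatory ligands Ccl3, Ccl4 and Ccl5 went different ways. Ccl3 (NM_013025) was above background on EAEcoP alone, with an NSI of 2.04, 2.29 and 16.5, against 2.99, 1.92 and 2.32. Ccl4 (NM_053858) was at 52.8, 100.1 and 25.6, against 59.8, 18.6 and 51.4. Ccl5 (NM_031116), which also binds Ccr1 and Ccr3, was at 144, 170.3 and 125, against 197, 75.8 and 85.7. For Ccl4 and Ccl5 the groups overlapped.

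Several ligands were seen on the EAEcoP array alone. These 7 targets were Ccl2, Ccl3, Ccl9, Ccl26, Cxcl10, Cxcl11 and the Cxcl12 target NM_022177, with an NSI of 12.9 to 21.0 there. They are 7 of the 28 ligand targets above background anywhere, against 12.0% of all targets above background anywhere, and 0 members were above background on any other array alone. Of the 14 receptors 10 had their lowest signal on EAEcoP, against 33.2% of all targets. Of the receptors 1, Ccr2, was highest there, against 30.1%.

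Among the ligands, Cx3cl1 (NM_134455) had the lowest log2 difference. By its brighter probe the NSI was 826 on ENMO, 777 on EAEcoI and 652 on EAEcoP, against 2882, 2313 and 4621. The arrays with T cells lay within 1.27-fold of each other, and the lowest array without T cells was above all of them. Cx3cl1 was 4.19-fold lower with T cells (log2 difference -2.07, SE 0.522, limma adjusted p = 0.216), and the difference was -1.66 within slide 1 and -2.23 within slide 2. The dimmer probe overlapped between the groups, at 35.8, 21.7 and 19.96, against 15.9, 42.2 and 12.3, and was above background with T cells only. The mean of both probes gave a log2 difference of -0.88, and the deposited values per target -0.81, both inside the spread.

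The receptor of fractalkine, Cx3cr1 (NM_133534), had an NSI of 59.2, 49.3 and 14.1, against 89.7, 53.7 and 86.8. ENMO lay above control IgG only, so the groups overlapped. The log2 difference was -1.11, and -0.47 without EAEcoP. Of 12 macrophage and microglia marker targets, cells that carry Cx3cr1, 4 were higher with T cells without overlap (7.1% of all targets) and 0 were lower (5.4%).

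Among the receptors, Cxcr6 (NM_001102587), found on effector T cells and NK cells, had an NSI of 28.2, 13.6 and 9.02, against 90.6, 37.7 and 86.9. It was above background on all 6 arrays and 4.41-fold lower with T cells (log2 difference -2.14, SE 0.624, limma adjusted p = 0.269). Ccr8 (ENSRNOT00000029766), a receptor of Th2 and regulatory T cells, had an NSI of 20.02, 22.1 and 6.39, against 49.2, 89.7 and 44.9. It was 4.12-fold lower (log2 difference -2.04, SE 0.637, limma adjusted p = 0.282) and not above background on EAEcoP. Xcr1 (NM_001106871), a receptor of cross-presenting dendritic cells, had an NSI of 57.9, 43.9 and 11.1, against 81.5, 60.7 and 72.2. Its log2 difference of -1.22 (SE 0.657, limma adjusted p = 0.5) was -0.49 without EAEcoP. Within slide 1 and slide 2 the differences were -1.24 and -2.70 for Cxcr6, -2.99 and -1.09 for Ccr8 and -1.26 and -0.80 for Xcr1. With normexp they were -0.81, -0.56 and -0.44 over all arrays, each inside 0.918. That limit was set without the normexp offset, so it does not decide whether these dim receptors differed. Xcl1, the ligand of Xcr1, was above background on no array.

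Cxcr6 and Xcr1 lie in a run of receptor genes on chromosome 8 with Ccr9, Ccr1, Ccr3, Ccr1l1 and Ccr2. Ccr1l1 (NM_001106872) had an NSI of 140.3, 105 and 32.8, against 132, 209.8 and 129.6. Ccr3 (NM_053958), an eosinophil receptor, had 26.7, 27.7 and 5.995, against 21.8, 45.5 and 23.2, and was above background on ENMO, EAEcoI and control IgG only. Its ligand Ccl11 (NM_019205) had 70.5, 61.2 and 39.2, against 114, 50.4 and 31.3. Ccr1l1 and Ccr3 were lowest on EAEcoP, while Ccl11 was lowest on healthy control. Ccr9 (NM_172329), the gut-homing receptor, had 35.6, 73.9 and 63.3, against 76.2, 59.3 and 71.7, and its ligand Ccl25 (NM_001037203) 30.0, 20.4 and 25.1, against 78.5, 46.0 and 13.8. The groups overlapped for each of these 5 targets.

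For the Ccr4 axis, Ccl17 (NM_057151) had an NSI of 32.7, 30.7 and 65.6, against 29.2, 21.0 and 49.2. Ccl22 (NM_057203) had 34.9, 29.8 and 61.2, against 24.1, 32.0 and 24.7 by 1 probe and 28.8, 37.4 and 24.5, against 23.8, 25.1 and 32.6 by the other, and these disagree on EAEcoP. Ccr4 (NM_133532) had 61.1, 38.9 and 30.2, against 32.0, 42.7 and 101. The groups overlapped for all 3 targets. Ccl17, Cx3cl1 and Ccl22 neighbour each other on chromosome 19, and only Cx3cl1 of these had groups that did not overlap. Ccr10 (NM_001108836) had an NSI of 29.3, 61.0 and 14.2, against 28.2, 40.0 and 29.6, and its ligand Ccl28 (NM_053700) 71.2, 57.5 and 24.0, against 53.9, 55.5 and 61.2, both lowest on EAEcoP.

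Cxcl12, the ligand of Cxcr4, has 2 targets. The target NM_001033883 had an NSI of 68.5, 145 and 44.5, against 135, 88.5 and 194. The other, NM_022177, had 5.08, 2.72 and 14.9, against 3.89, 9.19 and 4.08 and was above background on EAEcoP alone. The log2 differences were -0.80 and 0.17, both inside the spread between spots.

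The ligands that act on neutrophils had lower means with T cells, each inside the spread between spots. Cxcl1 (NM_030845) had an NSI of 16.2, 9.81 and 5.70, against 33.1, 3.33 and 28.7. Cxcl2 (NM_053647) had 25.3, 32.6 and 6.38, against 30.6, 23.1 and 39.2, above background on ENMO, EAEcoI and healthy control. Cxcl3 (NM_138522) had 571, 468 and 216, against 680.3, 639.6 and 418 by its brighter probe, and the dimmer one was above background on no array. All 3 were lower on EAEcoP than on ENMO and EAEcoI, and their log2 differences were -0.60, -0.80 and -0.55. Il8rb, the array's name for their receptor Cxcr2, had an NSI of 23.7, 13.5 and 7.26, against 26.5, 23.4 and 28.3.

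The remaining ligands were Ccl6, Ccl9, Ccl26 and Cxcl17. Ccl6 (ENSRNOT00000045867), a ligand of myeloid cells in rodents, had an NSI of 82.3, 49.8 and 35.1, against 57.2, 34.8 and 94.5. Cxcl17 (NM_001107491), a mucosal chemokine, had 515, 454 and 244, against 664, 332 and 445. Ccl9 (NM_001012357), a ligand of Ccr1, had 7.28, 8.07 and 14.6, against 3.15, 5.37 and 9.70, and Ccl26 (NM_001109488), a ligand of Ccr3, had 4.72, 4.27 and 19.3, against 4.07, 10.2 and 3.91. The groups overlapped for these 4.

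The antibody was compared next, each pair being 1 array against 1. With T cells, ENMO was set against EAEcoI. Of 35 members above background on at least 1 array of that pair, 0 were higher on ENMO past the spread between spots (6.94% of all targets) and 1 was lower, Ccl19 (6.18% of all targets). Ccl19 was 4.30-fold lower on ENMO than on EAEcoI. Without T cells, NMO-IgG only was set against control IgG only. Here 2 of 28 members were higher with NMO-IgG, Cxcr4 and Ccl4, against 4.98% of all targets, and 0 were lower, against 5.19%. Both of these pairs lie across the slides, so antibody and slide cannot be told apart in them.

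Cxcr4 (NM_022205), the receptor of Cxcl12 on most leukocytes, had an NSI of 106, 239 and 76.1, against 276, 50.1 and 133. NMO-IgG only was 5.51-fold above control IgG only by this probe, while the other probe had 22.7, 24.4 and 10.06, against 29.9, 20.9 and 33.5. With T cells the order was opposite, with a log2 difference of -1.18 between ENMO and EAEcoI, inside the spread. The brighter probe was higher on every array of slide 2, at 133 to 276, than on any of slide 1, at 50.1 to 105.5. NMO-IgG lies on slide 2 in the pair without T cells and on slide 1 in the pair with them, so antibody and slide cannot be told apart in the opposite signs of these pairs. Ccl4 was at least 3.21-fold higher on NMO-IgG only than on control IgG only, where it was below background, and 1.90-fold lower on ENMO than on EAEcoI. For both genes healthy control lay between the antibody arrays without T cells. Cxcl1 was below background on control IgG only, at least 2.86-fold under NMO-IgG only, a bound that does not reach the limit of 3.01-fold.

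Over the 27 members with a difference in both pairs of arrays, 11 were higher with NMO-IgG in both, 3 were lower in both and 13 had opposite signs. Over all 16038 targets with both differences the shares were 24.4%, 19.5% and 56.0%, beside 40.7%, 11.1% and 48.1% of the members, and no test was made of that difference. In limma, with T cells and antibody in the fit and all 6 arrays, 0 of 24944 targets differed between NMO-IgG and control IgG at an adjusted p under 0.05 (0% of targets), and 374 had an unadjusted p under 0.05. Of the 42 members 0 were called and 0 had an unadjusted p under 0.05. Cxcl1 had a log2 difference of 2.02 (SE 1.04) and Ccl19 of -1.20 (SE 0.877), and the limma adjusted p rounded to 1 for each. That fit has 2 residual degrees of freedom.

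**Figure D4:**
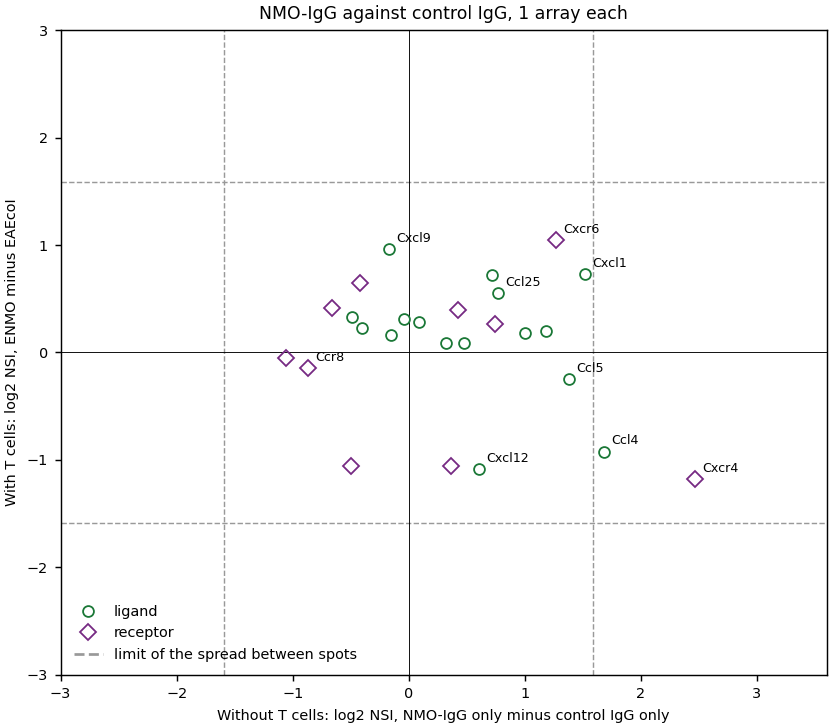
Difference in log2 NSI between NMO-IgG and control IgG without T cells (horizontal) and with T cells (vertical) for the members reported here with a value in both, as a bound where 1 side is below background; dashed lines mark the spread between spots, 1.59. Cxcr4 (2.46) and Ccl4 (1.68) pass it without T cells and no point passes it with T cells, and Ccl19 is not drawn, since both arrays without T cells were below background.

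ENMO and EAEcoP lie on the same slide and differ by NMO-IgG against PBS. Of 42 members 8 were higher on ENMO past the spread, against 13.9% of all targets, and 2 were lower, against 13.1%. Among the higher ones were the receptors Ccr1l1, Ccr3, Ccr8, Cx3cr1, Cxcr6 and Xcr1 and the ligand Cxcl2, with differences of 3.12-fold for Cxcr6 to 5.20-fold for Xcr1, as bounds for Ccr3, Ccr8 and Cxcl2. The lower ones were Ccl19, 4.93-fold, and Ccl21b, 4.91-fold. EAEcoI, on the other slide, was also above EAEcoP for these receptors, from 1.51-fold for Cxcr6 to at least 4.61-fold for Ccr3. With normexp, 0 members passed in either direction, but the limit was set without its offset, which dim members can hardly pass.

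Chemokine genes under other names were 11 targets. They include Cxcr7, listed as Ackr3 in RefSeq, which is also counted among the members and was above background on no array. The other 10 were above background, of which 0 were higher (7.1% of all targets) and 1 was lower (5.4%) with T cells without overlap. This was Il8ra, the neutrophil receptor Cxcr1, at 19.9, 21.5 and 6.24, against 21.7, 22.8 and 26.1, where the groups are separated narrowly. Blr1, listed as Cxcr5 in RefSeq, was at 96.0, 76.0 and 31.15, against 111, 52.9 and 99.15, and its groups overlapped. Cklf, a chemokine-like factor, had a target (BM392387) at 64.8, 19.2 and 296, against 1.89, 19.4 and 1.86, with EAEcoI just below control IgG only. Its other target, NM_139111, was at 9.75, 13.4 and 13.7, against 4.01, 15.7 and 7.89. Among 23 targets of chemokine receptor signalling 16 were above background, 2 were higher without overlap (7.1% of all targets) and 0 were lower (5.4%). The GTPase Rac2 was at 148, 104 and 136, against 91.8, 77.7 and 93.5, and the Rac activator Dock2 (XM_001068649) at 36.3, 46.5 and 229.8, against 14.4, 17.4 and 22.5.

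Cytokines and factors that induce chemokines were 15 targets, of which 14 were above background, 3 were higher without overlap, among them Ifng and LOC301289 (7.1% of all targets), and 0 were lower (5.4%). Ifng, the T cell cytokine that induces the Cxcr3 ligands, was at 17.1, 16.5 and 20.8, against 11.0, 13.8 and 10.5, below background without T cells. LOC301289 (NM_001106897), listed as Il17a in RefSeq, the cytokine of Th17 cells, was at 146, 27.9 and 26.5, against 11.6, 14.2 and 17.5, with its highest signal on ENMO. Tnf was at 13.2, 11.3 and 10.8, against 15.3, 11.7 and 7.97 and Il1b at 33.6, 29.1 and 13.2, against 28.2, 22.2 and 53.0, with the groups overlapping. Tnf was above background on EAEcoI and EAEcoP alone.

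Markers of the cells that carry or make chemokines moved as follows, and their part in the results was not tested. Beside the counts without overlap stand the shares over all targets, 7.1% higher and 5.4% lower with T cells. Of 12 macrophage and microglia targets 4 were higher without overlap, and the summed NSI was 4430 to 15790 with T cells and 2345 to 4001 without, most of it from the Tyrobp target NM_212525, whose groups overlapped. Without that target the sums were 1259 to 1914 and 992 to 1466, and the groups overlapped. Of 8 T cell targets 0 were higher or lower, Cd3e and Cd2 were above background on no array, and the sum was 1008 to 2550 against 728 to 1017, most of it from Cd3d. Without Cd3d the sums were 201, 130 and 136, against 99.9, 193 and 134, and the groups overlapped. Of 11 neutrophil targets 7 were above background on at least 1 array, and 1 was higher without overlap, Lcn2. Of these 7, 3 had a higher mean with T cells and 4 a lower one. The neutrophil sum was 352 to 545 against 303 to 422. Of 3 B cell targets 2 were above background on at least 1 array, and 0 were higher or lower. Of 6 endothelial targets 2 were lower, Pecam1 and Tek. As a check of the tissue, all 5 neuron and all 7 oligodendrocyte targets were above background on at least 1 array, while among the astrocyte markers S100b and Slc1a3 were so on none and Aqp4 on EAEcoP alone. The resident cells' markers moved in both directions. Of the 7 oligodendrocyte targets 2 were lower without overlap. Mog was at 368, 201 and 136, against 409, 693 and 1574, and Mobp (NM_012720) at 260.0, 319 and 238, against 488, 386 and 329. The other 5 had a higher mean with T cells, and the median log2 difference over the 7 was 0.62. Of 7 astrocyte targets 1 was higher without overlap, Gfap (NM_017009) at 33.1, 29.9 and 143, against 6.23, 12.5 and 4.87. Among the 5 astrocyte targets above background on at least 1 array, 2 had a higher mean with T cells and 3 a lower one, with a median of -0.03.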

How the data were processed

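RNA of pooled fixed spinal cord was measured on 6 one-channel Agilent arrays, 1 per group. The authors deposited the scanner output of Agilent Feature Extraction 10.1.1.1, from which the processed signal intensities, already corrected for background by that software, were taken. Control spots and spots marked as outliers were left out. Log2 signals were averaged over each probe's spots and then quantile-normalized over the arrays, and the brightest probe stood for each target. A probe counted as above background where at least 0.5 of its spots were marked well above background. Where 1 side had no array above background, a fold change is a bound. Each array of that side then entered with its lowest signal above background, or with the target's own signal where that was higher. limma 3.58.1 in R 4.3.3 (lmFit, eBayes with trend, Benjamini-Hochberg adjustment, two-sided) was fitted to the 24944 targets above background on at least 1 array. Some genes that entered the counts are not reported here by name. Python 3.11.15, numpy 2.4.6 and pandas 2.3.3 did the rest. The main fits for T cells and for antibody were run on simulated independent values, without slide or pool effects. The fits with a block or with an array left out were not. Of the 50 members 47 matched RefSeq by accession. The rule for named genes asked for values on every array for members whose sides did not overlap, members that passed the antibody limit with and without T cells (0 did), and ligand and receptor pairs with a partner above background on 3 or more arrays, and, of other lists, members that did not overlap and up to 4 more; values of the remaining members were added after they were seen. The members and gene lists were chosen with earlier results of these data known. Pools are not replicates, so p-values measure the spread between arrays that differ in antibody and slide. Alternatives were another scaling, normexp with an offset of 50, the deposited values per target, outlier spots kept, the mean over probes, removal of a local trend, other filters, slide or antibody as a block, differences of means within slides and leaving out each array.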

Additional observations from a re-analysis of the deposited data

How the results depend on the processing

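The 2 members higher with T cells without overlap became 4 with the mean over probes and 4 with the local trend removed, and leaving out 1 array gave 3 to 6. The 4 lower members became 4 to 7 when 1 array was left out, where fewer values are left to overlap. Among the counts in this section of members without overlap or past a limit, only the 2-fold counts have the share over all targets beside them. The others do not show whether chemokine targets changed more than the array as a whole. The normexp counts past a limit used limits set without its offset, so they do not test the differences of dim members. The ligand median was -0.0797 among targets above background on all arrays, which are fewer. Between ENMO and EAEcoI, a fixed 2-fold limit gave 2 members higher and 5 lower of 35 (14.8% and 14.1% of all targets), and normexp 0 lower. Between ENMO and EAEcoP, the 2-fold limit gave 16 higher and 6 lower of 42 (26.9% and 22.8% of all targets), normexp 0 higher and 0 lower, the deposited values 7 lower and the mean over probes 5 lower. Between NMO-IgG only and control IgG only, the 2-fold limit gave 7 higher and 1 lower of 28 (13.9% and 12.6% of all targets), and normexp 1 higher. The limma calls for T cells were 0, but 1 with the local trend removed, 1 with no filter on dim targets, 29 with antibody as a block (1 of them a member, Ccl19) and 0 to 245 when 1 array was left out, 245 without ENMO and 3 without EAEcoI, with 0 to 1 members among them. For the antibody, slide as a block gave 98 calls with 1 residual degree of freedom and 0 members among them. The log2 difference of Ccl2 turned to -0.029 within slide 2. The cause was not tested for the other changes. The fit with antibody as a block compares arrays with and without T cells that share an antibody. A pairing by replicate number was not possible because each group is 1 array. Differences among dim members that lie inside the arrays' spread between spots cannot be told from that spread. The background correction, the slide and leaving out EAEcoP also changed such differences, as given above for Cxcl14 and Ccl2. Which of these limits the differences among dim members was not tested.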
